A study of Mus musculus with 4 samples.

Results

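The part of the genome outside every called peak was compared between the LSD1 library and the control IgG library of a ChIP-seq experiment in mouse embryonic stem cells. The autosomes of mm9 were divided into windows of 1 kb. A window was kept if it shared no base with any of the 5106 LSD1 peaks, 32256 H3K4me2 peaks or 158 IgG peaks deposited by the authors. This left 2360823 of 2415225 windows (97.7%), with 83.3% of all LSD1 reads, 92.4% of IgG reads, 94.1% of Input reads and 72.7% of H3K4me2 reads. Of these windows, 172471 (7.31%) held no read of any library.

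The cells were the 129SV line R1, kept with leukaemia inhibitory factor on gelatin and used at passages 13 to 18, with no treatment or genetic change named. All 4 libraries came from these cells: Input (sheared DNA taken before immunoprecipitation), control IgG, LSD1 and H3K4me2. Each group held 1 library, so no p-value is given and each difference is one between libraries. The libraries held 3801082 (Input), 4755619 (IgG), 5833862 (LSD1) and 6416657 (H3K4me2) reads. The LSD1 antibody is listed under a catalogue number that another supplier uses for an antibody to H3K27me3, and the library is called LSD1 here after its label.

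LSD1 is a demethylase that takes methyl groups off histone H3 that carries 1 or 2 of them on lysine 4, and works in complexes with the corepressor CoREST and with histone deacetylases. H3K4me2 marks promoters, enhancers and the chromatin beside them, and is sparse in silent, gene-poor regions. A called peak is a stretch where a caller found more reads than its threshold, so weaker or wider binding can lie outside the list. IgG has no chosen target and shows how much DNA of a region is recovered without one, which is often more in open chromatin.

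Outside all peaks the LSD1 library was richest, relative to IgG, in the windows next to H3K4me2 peaks. In those under 1 kb from an H3K4me2 peak it held 0.978 reads per 1000000 reads of the library (RPM) per kb, against 0.696 for IgG. The LSD1 to IgG ratio there was 1.41 (95% interval 1.40 to 1.41). The ratio fell at every step away from the mark, reaching 1.07 (1.07 to 1.08) for 1 to 5 kb. It was 0.962 (0.959 to 0.965) for 5 to 20 kb and 0.879 (0.877 to 0.881) for 20 to 100 kb. Over 100 kb away it was 0.804 (0.802 to 0.805). The windows closest to the mark thus stood 1.75-fold (1.74 to 1.76) above those farthest from it. These intervals cover counting error only. The peak lists were called on the reads counted here, so windows in which a caller found LSD1, H3K4me2 or IgG above its threshold had been removed.

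The place where the ratio crosses 1 depends on how the libraries are scaled. Scaled to the whole library, the ratio over all windows outside peaks was 0.902 (0.900 to 0.903). Scaled to the reads in windows over 100 kb from H3K4me2 it was 1.12, and the classes from 5 to 20 kb and from 20 to 100 kb then lay above 1, at 1.20 and 1.09. Scaling multiplies all 5 classes alike, so their order and the 1.75-fold contrast do not depend on it. For comparison, autosomal windows that touched an H3K4me2 peak and no LSD1 or IgG peak had an LSD1 to IgG ratio of 2.66 (2.65 to 2.67), so the windows under 1 kb away stood between these and the rest.

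**Figure D1:**
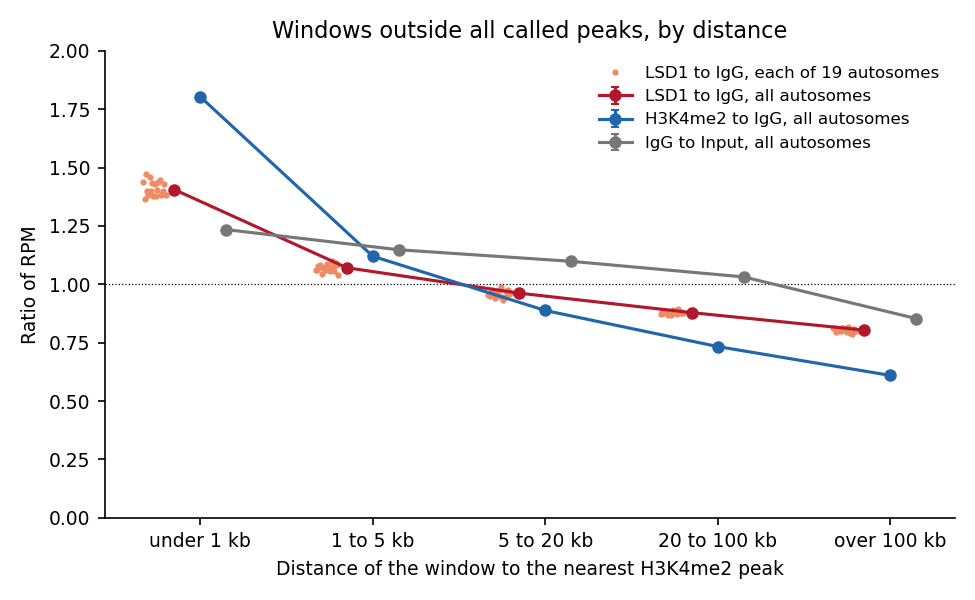
Ratio of RPM (vertical axis) in windows outside all called peaks, by distance to the nearest H3K4me2 peak; large points are all autosomes with 95% counting intervals, small points are single autosomes for LSD1 to IgG. LSD1 to IgG fell from 1.41 to 0.804, H3K4me2 to IgG from 1.80 to 0.610 and IgG to Input from 1.23 to 0.853.

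The 5 distance classes were of unequal size. The nearest held 42998 windows (1.82%) and the farthest 1202365 (50.9%). The median window under 1 kb held 5 LSD1 reads, 3 IgG reads, 2 Input reads and 6 H3K4me2 reads, and the median window over 100 kb held 1 of each. At that depth 32.4% of the farthest windows with reads around them held no LSD1 read and 30.9% no IgG read, so single windows there show little and the ratios rest on sums.

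H3K4me2 reads are given beside these as a description, since the distance classes start from peaks called on the same reads and a decline away from them follows from the rule. The H3K4me2 to IgG ratio was 1.80 (1.79 to 1.81) under 1 kb and 0.610 (0.609 to 0.611) over 100 kb, a contrast of 2.96-fold (2.94 to 2.98). The LSD1 to H3K4me2 ratio, which depends on that decline, went from 0.779 (0.775 to 0.783) to 1.32 (1.31 to 1.32). The ratios to IgG also share that library.

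IgG was not even over these classes either. Relative to Input it fell from 1.23 (1.22 to 1.24) under 1 kb to 0.853 (0.852 to 0.855) over 100 kb. Against Input the LSD1 library fell from 1.73 (1.72 to 1.75) to 0.686 (0.684 to 0.687), a contrast of 2.53-fold (2.51 to 2.55). The size of the LSD1 gradient thus differed between the controls, and with IgG, the closer match to an immunoprecipitation, it was the smaller. What IgG recovers beside H3K4me2 peaks moved with the result, and its part in it was not tested.

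In steps finer than a window, LSD1 to IgG declined from the edge of the called peak. In the first 100 bp outside an H3K4me2 peak LSD1 to IgG reached 2.24 (2.12 to 2.37), on 4676 LSD1 and 1699 IgG reads. It was 1.92 (1.85 to 1.98) between 200 and 300 bp, 1.52 (1.49 to 1.55) between 500 and 700 bp and 1.24 (1.22 to 1.25) between 1000 and 1500 bp. Fragments were selected at about 200 bp, so the first steps can hold reads of fragments that reach into the peak. The decline went on well beyond a fragment's length: the ratio was 1.04 (1.03 to 1.04) between 3 and 5 kb and 0.952 (0.947 to 0.956) between 10 and 15 kb. It was 0.853 (0.850 to 0.856) between 50 and 100 kb and 0.778 (0.775 to 0.781) beyond 500 kb. The ratio fell from each of the 20 steps of distance to the next.

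**Figure D2:**
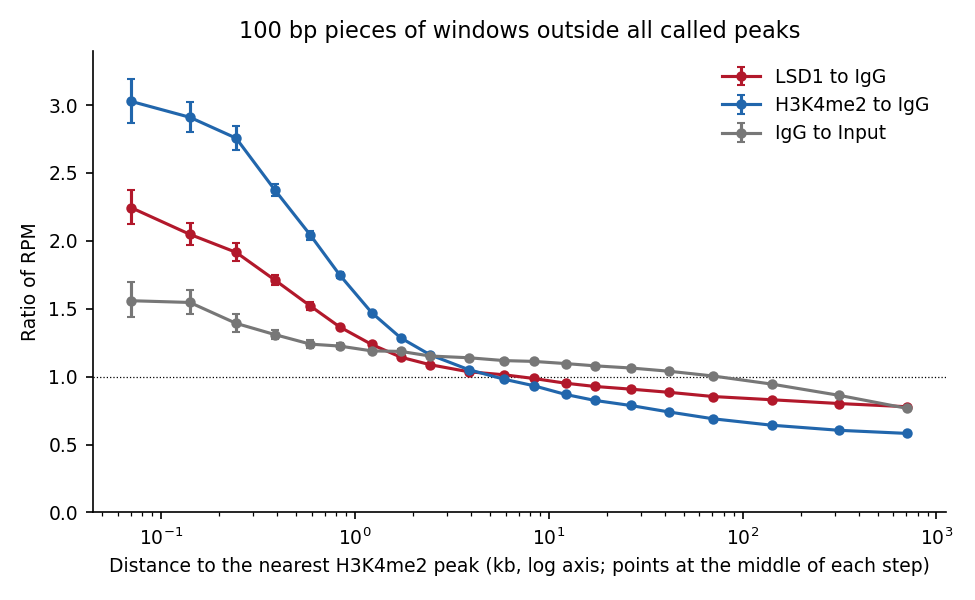
Ratio of RPM (vertical axis) in 100 bp pieces of windows outside all peaks, against distance to the nearest H3K4me2 peak in kb (log axis), with 95% counting intervals. LSD1 to IgG fell from 2.24 in the first 100 bp to 0.778 beyond 500 kb, and H3K4me2 to IgG from 3.03 to 0.582.

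The gradient was present on each chromosome. On all 19 autosomes the LSD1 to IgG ratio fell at each of the 4 steps between classes. Under 1 kb it lay between 1.37 (chromosome 2) and 1.47 (chromosome 3), with an SD over autosomes of 0.0312. Over 100 kb it lay between 0.786 (chromosome 16) and 0.816 (chromosome 13), with an SD of 0.00848. No autosome of one of these 2 classes overlapped with the other, and the contrast between them ran from 1.68 (chromosome 2) to 1.85 (chromosome 3). Chromosomes of 1 library are not replicates of the experiment, and this spread shows only how alike the chromosomes of this pair of libraries were.

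Input reads in a window, which took no part in the ratio, went with smaller differences. They reflect how much of a window can be read uniquely, its copy number and how easily it is sheared. In the 657714 windows without an Input read, LSD1 to IgG stood at 0.865 (0.862 to 0.867), and in the 680135 windows with 1 it stood at 0.881 (0.879 to 0.883). It rose to 0.902 with 2, 0.938 with 3 to 4 and 1.02 (1.01 to 1.02) with 5 to 9, or 1.18-fold (1.17 to 1.18) from the lowest of these classes to the highest. In the 568 windows with 10 or more Input reads it was lower again, at 0.913 (0.893 to 0.933). The windows named below for the most reads are in this class, the largest with 753 of its 17391 LSD1 reads. The sum thus leans in part on few windows, which the counting interval does not show.

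Distance and Input were then crossed. Within each Input class from 0 to 9 reads, windows under 1 kb exceeded those over 100 kb by 1.72- to 1.82-fold, close to the 1.75-fold of all windows. Within each distance class, windows with 5 to 9 Input reads exceeded those with none by less than over all windows, by 1.06-fold (1.04 to 1.07) over 100 kb to 1.15-fold (1.13 to 1.17) for 1 to 5 kb. So the distance gradient was about as large within these classes of Input reads, and the Input gradient was smaller within distance classes. How far windows of 1 Input class still differed in the Input level behind their few reads was not tested. The class of 10 or more Input reads was the exception. There the near to far contrast was 1.15 (1.01 to 1.31), on only 29 windows under 1 kb, and the 138 windows at 5 to 20 kb had the lowest ratio of that class, 0.791 (0.750 to 0.835).

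**Figure D3:**
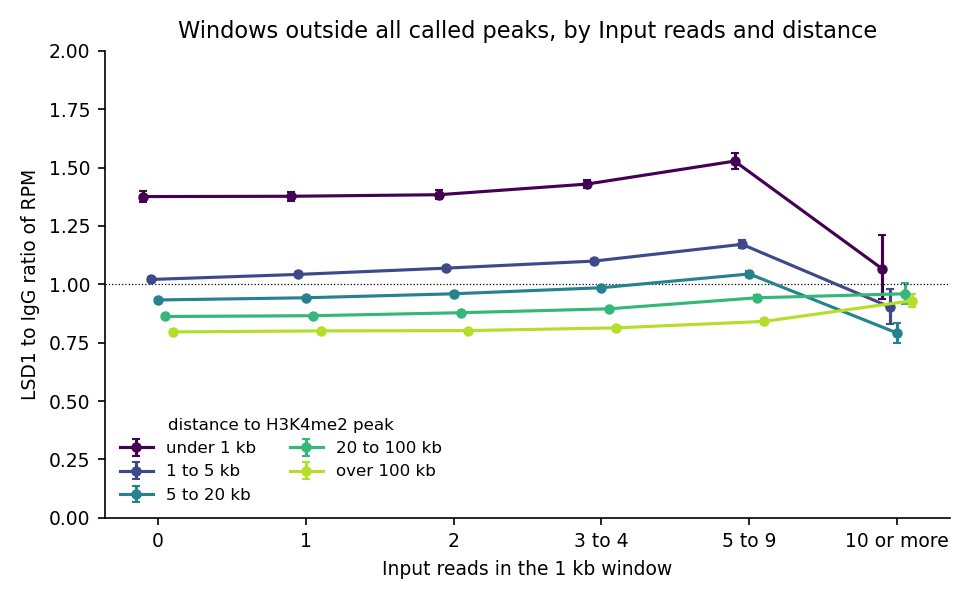
LSD1 to IgG ratio of RPM (vertical axis) by the number of Input reads in the window (horizontal axis) and by distance to the nearest H3K4me2 peak (colours), with 95% counting intervals. The lines stay apart in the order of distance from 0 to 9 Input reads and cross at 10 or more.

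The LSD1 to IgG ratio also rose with the number of H3K4me2 reads in the window itself. Windows without an H3K4me2 read stood at 0.778 (0.776 to 0.781), and the ratio was 0.867 (0.865 to 0.870) with 3 to 4 such reads and 1.03 (1.03 to 1.03) with 5 to 7. In the 93595 windows with 8 or more it was 1.65 (1.64 to 1.65), which is 2.11-fold (2.10 to 2.13) the value at 0. Neither the LSD1 nor the IgG reads took part in this grouping.

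Windows with 8 or more H3K4me2 reads had raised LSD1 to IgG ratios at every distance. The ratio was 1.86 (1.84 to 1.88) under 1 kb and 1.63 (1.61 to 1.64) for 1 to 5 kb. The 3 farther classes had 1.57 (1.56 to 1.58), 1.60 (1.58 to 1.61) and 1.61 (1.58 to 1.63). Beyond 5 kb it did not fall with distance. Windows without an H3K4me2 read were low at every distance, from 0.833 (0.793 to 0.875) under 1 kb to 0.762 (0.759 to 0.765) over 100 kb.

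With IgG as the control, the near to far contrast at an equal number of H3K4me2 reads was therefore much smaller than 1.75. It was 1.09 (1.04 to 1.15) in windows with none, 1.18 (1.16 to 1.20) with 3 to 4 and 1.16 (1.14 to 1.18) with 8 or more. These 3 intervals stayed above 1. How far windows of 1 class still differed in the mark was not tested. The contrast of 5 to 9 Input reads against none was smaller as well than the 1.18 of all windows. It was 1.01 (0.993 to 1.03) where there was no H3K4me2 read and lay between 1.03 and 1.05 in the other 5 classes, each with an interval above 1. The number of H3K4me2 reads also went with IgG to Input, which was 0.841 at 0 and 1.32 at 8 or more. In windows with no H3K4me2 read IgG to Input was 1.09 under 1 kb and 0.788 over 100 kb. Against Input, the near to far contrast of LSD1 in these windows was 1.51 (1.44 to 1.60), where all windows had 2.53. How small the contrast becomes thus depends on the control.

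**Figure D4:**
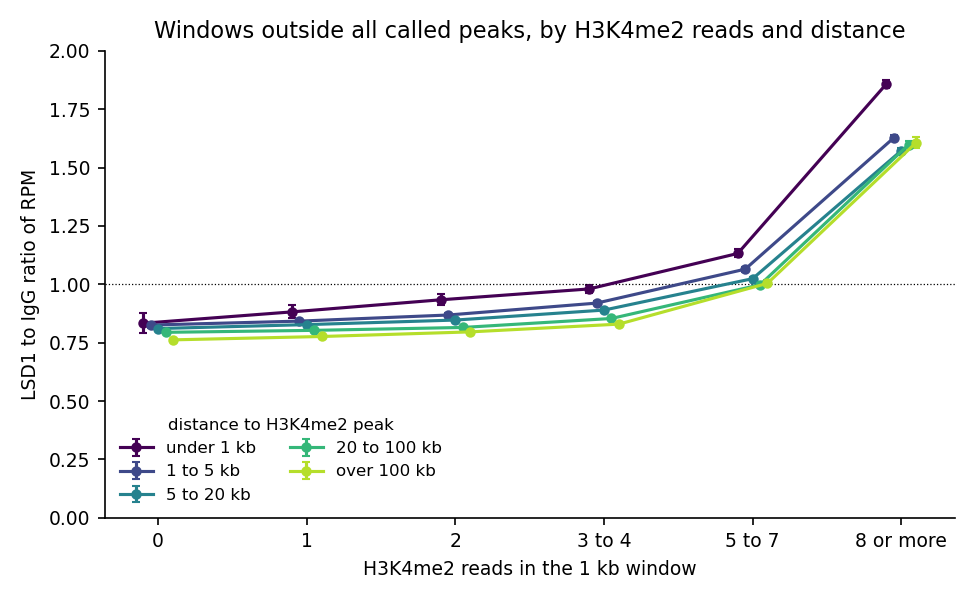
LSD1 to IgG ratio of RPM (vertical axis) by the number of H3K4me2 reads in the window (horizontal axis) and by distance to the nearest H3K4me2 peak (colours), with 95% counting intervals. The lines for the 5 distances lie close together, between 0.762 and 0.833 at 0 reads and between 1.57 and 1.86 at 8 or more.

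Far from any called H3K4me2 peak, 6632 windows (0.552% of those over 100 kb) still held 8 or more H3K4me2 reads. Their median was 11 H3K4me2 reads, 6 LSD1 reads, 3 IgG reads and 2 Input reads, at a median distance of 186 kb from the nearest peak. Of these windows, 3140 (47.3%) lay next to another of the kind. Some are windows with many reads in all libraries. Of the 6632, the 4696 with under 3 Input reads had an LSD1 to IgG ratio of 1.88 (1.84 to 1.92). That was 2.46-fold (2.42 to 2.52) the ratio of far windows with neither an H3K4me2 read nor more than 2 Input reads.

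The excess around these far windows was narrow. Next to windows with 8 or more H3K4me2 reads, LSD1 to IgG stood at 1.27 (1.26 to 1.29) in windows 1 kb away and at 1.03 (1.02 to 1.05) in windows 2 kb away. At 5 kb it was 0.905 (0.890 to 0.919), at 15 kb 0.862 (0.847 to 0.877) and at 50 kb 0.853 (0.835 to 0.870). The H3K4me2 to Input ratio fell alongside, from 1.60 at 1 kb to 0.784 at 5 kb and 0.633 at 50 kb. At 50 kb the LSD1 to IgG ratio was thus still somewhat above the 0.804 of all far windows. Neighbours that were themselves windows of this kind were not left out, and 47.3% of the chosen windows lay next to another. The H3K4me2 value at 1 kb thus follows in part from the choice, and the LSD1 to IgG value there includes chosen windows.

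Features of the nearest H3K4me2 peak went with small differences. Windows under 1 kb from a peak that held a called LSD1 peak had a ratio of 1.34 (5734 windows), and those beside a peak without one had 1.42 (37264 windows), a contrast of 0.945 (0.927 to 0.963). IgG to Input moved the other way, 1.08-fold (1.06 to 1.11) higher beside peaks with LSD1, and the contrast of LSD1 to Input was 1.02 (1.00 to 1.05). The LSD1 level was 0.986 RPM per kb beside peaks with LSD1 and 0.977 beside those without. The lower ratio to IgG beside peaks with LSD1 thus came with a higher IgG level (0.737 against 0.690 RPM per kb), while the LSD1 level was nearly the same. Windows that themselves passed the caller's threshold for LSD1 are not among those compared. Beside H3K4me2 peaks of 2000 bp or more the ratio was 1.45, and beside those under 500 bp it was 1.44, a contrast of 1.01 (0.969 to 1.05). Between them it was lower, at 1.41 (1.40 to 1.42) beside peaks of 500 to 1000 bp and 1.36 (1.34 to 1.38) beside those of 1000 to 2000 bp, so it had no steady order by width. At 1 to 5 kb it rose with the width of the nearest peak, from 1.05 beside peaks under 500 bp to 1.16 beside those of 2000 bp or more. Over 100 kb away the values were 0.802 and 0.838.

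The wider surroundings carried a difference of their own. At 20 to 100 kb from the nearest peak, the ratio was 0.835 where 1 to 4 H3K4me2 peaks lay within 500 kb on either side and 0.913 where 30 or more did, a contrast of 1.09 (1.08 to 1.10). At 1 to 5 kb it rose likewise from 0.988 to 1.09, and at 5 to 20 kb from 0.889 to 0.996. Over 100 kb away it was 0.778 with no peak within 500 kb and 0.836 with 30 or more. Under 1 kb the order was the opposite, with 1.54 at 1 to 4 peaks and 1.38 at 30 or more. The drop from under 1 kb to 20 to 100 kb was therefore larger in peak-poor surroundings, 1.84-fold (1.77 to 1.91), than in peak-rich ones, 1.51-fold (1.50 to 1.53). IgG to Input rose with the number of peaks as well, from 0.887 to 1.14 at 20 to 100 kb. The part of base composition and gene content in these differences was not tested.

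Single windows could be read only where they held enough reads. With at least 10 LSD1 plus IgG reads, 133509 windows outside peaks (5.66%) remained. In 29412 of them (22.0%) LSD1 was at least 2-fold over IgG, with 0.5 reads added to each count, and in 13206 (9.89%) IgG was at least 2-fold over LSD1. Over all autosomal windows with that many reads, peaks included, the shares were 35% and 7.37%. The windows outside peaks thus passed the fold for LSD1 less often than windows at large, and the fold for IgG more often. The rule had removed the windows in called peaks, of which 70.5% with that many reads passed the fold for LSD1, so this order is no finding.

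Among the windows outside peaks, the share with LSD1 over IgG was largest next to the mark. It was 35.3% (5842 of 16539) under 1 kb and 23.8% (6689 of 28049) for 1 to 5 kb. In the 3 farther classes it was 19.8%, 18.1% and 19.1% (2256 of 11796 over 100 kb). The share with IgG over LSD1 ran the other way, from 4.50% under 1 kb to 13.1% over 100 kb. Unlike the summed ratio, the share for LSD1 thus did not fall at the last step. The 10-read minimum keeps 38.5% of the nearest windows and 0.981% of the farthest, so the classes are not equally selected.

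Windows beside the chosen ones were read as well. A neighbour may itself pass the rule of choice, so its value is not independent of that rule. Over 100 kb from H3K4me2, the windows 1 kb away from those with LSD1 at least 2-fold over IgG had a ratio of 1.39 (1.36 to 1.42). Those 1 kb away from windows with IgG at least 2-fold over LSD1 had 0.879 (0.852 to 0.907), and those beside any window with 10 or more reads had 1.05 (1.04 to 1.06). The ratio in the next window thus lay on the side of the window chosen, above the value beside any window with 10 or more reads for LSD1 and below it for IgG. All 3 values were above the 0.804 of all windows over 100 kb. The difference was short in range: at 2 kb the first value was 1.07 (1.04 to 1.10), at 5 kb 0.909 (0.884 to 0.935) and at 10 kb 0.867 (0.843 to 0.892), against 0.845 (0.817 to 0.874) around the windows with more IgG. Fragments that lie across a border give reads to both windows, and how much of the value at 1 kb this accounts for was not tested.

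H3K4me2 and Input, which were not used to choose these windows, are given for the 2 kinds as a description. In far windows with LSD1 at least 2-fold over IgG the H3K4me2 to Input ratio was 3.54 (3.42 to 3.65), and in those with IgG at least 2-fold over LSD1 it was 0.784 (0.748 to 0.823). All far windows with 10 or more reads had 1.53 (1.51 to 1.55). The windows 1 kb from the first kind had 2.04 (1.98 to 2.09) and those 1 kb from the second had 0.750 (0.723 to 0.777). The 2 kinds reached the read minimum mostly through opposite libraries. The first held 25374 LSD1 and 5486 IgG reads in 2256 windows, the second 4845 and 12162 in 1545. Their H3K4me2 values are therefore not set against each other, and no link of LSD1 with H3K4me2 is drawn from them.

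**Figure D5:**
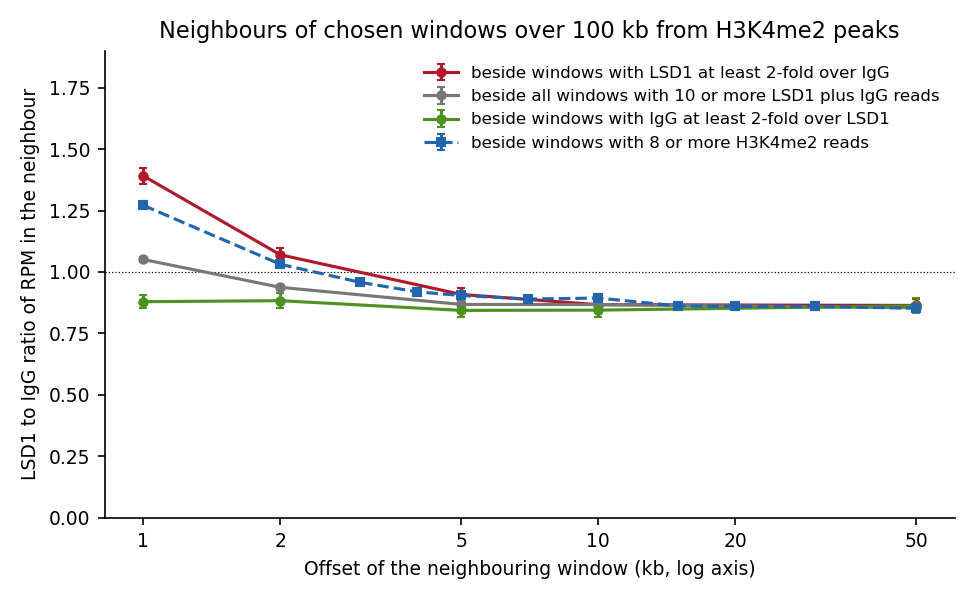
LSD1 to IgG ratio of RPM (vertical axis) in windows 1 to 50 kb (log axis) from chosen windows that lie over 100 kb from H3K4me2 peaks, with 95% counting intervals. At 1 kb the ratio was 1.39 beside windows with LSD1 at least 2-fold over IgG, 1.27 beside windows with 8 or more H3K4me2 reads and 0.879 beside windows with IgG at least 2-fold over LSD1.

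The 8 windows with the highest LSD1 to IgG ratio held 21 to 25 LSD1 reads and no IgG read. Where a window had no IgG read, 3 reads of the IgG library (0.631 RPM) stood in as the floor, and "at least" refers to it. The highest, at 12397001 to 12398000 on chromosome 8, had 26 H3K4me2 reads, 25 LSD1 reads and no Input read, with LSD1 at least 6.79-fold higher than IgG. It was 0.654 kb from an H3K4me2 peak and 42.1 kb from an LSD1 peak. On chromosome 1 the window from 72537001 to 72538000 had 21 H3K4me2 reads and 24 LSD1 reads (at least 6.52-fold higher than IgG), 91.3 kb from the nearest H3K4me2 peak. On chromosome 7 the windows starting at 6611001 and 137395001 each held 23 LSD1 reads, with 24 and 16 H3K4me2 reads, at 36.7 and 11.1 kb from an H3K4me2 peak. The other 4 lay within 0.128 kb of an H3K4me2 peak. They started at 118081001, 126701001 and 147998001 on chromosome 4 and at 97272001 on chromosome 11. All 8 windows thus carried H3K4me2 reads in number, between 16 and 26. Choosing by this ratio favours windows without IgG reads.

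Far from the mark, the 5 windows with the highest ratio were of the same kind, with 17 to 19 LSD1 reads, no IgG read and 12 to 28 H3K4me2 reads. On chromosome 4 the window from 36898001 to 36899000 had 28 H3K4me2 reads, 19 LSD1 reads (at least 5.16-fold higher than IgG) and 1 Input read, 1724 kb from the nearest H3K4me2 peak. The window from 43786001 to 43787000 on chromosome 2 also held 19 LSD1 reads, with 12 H3K4me2 reads and 4 Input reads, 995 kb from an H3K4me2 peak. The remaining 3 started at 114348001 on chromosome 6, 10359001 on chromosome 13 and 89315001 on chromosome 5, with 26, 17 and 28 H3K4me2 reads. Genes at these places are not named, since no gene positions on mm9 were used here.

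At the other end, the 5 windows with the lowest ratio held 11 to 13 IgG reads and no LSD1 read. The lowest, on chromosome 16 from 93606001 to 93607000, held 13 IgG reads, 1 Input read and 3 H3K4me2 reads, with IgG at least 5.32-fold higher than 3 reads of the LSD1 library. The next, on chromosome 6 from 83433001 to 83434000, held 12 IgG reads, no Input read and 2 H3K4me2 reads. The others lay on chromosome 4, starting at 46846001 and 153550001, and on chromosome 7, starting at 106153001. In all 5, H3K4me2 reads numbered 2 to 7. These windows passed the read minimum through IgG alone. Those named above for a high ratio passed it through LSD1 alone and on more reads, so the H3K4me2 counts of the 2 sets are not compared.

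The windows with the most LSD1 reads were of another sort, high in every library. On chromosome 1, 3 adjacent windows from 24619001 to 24622000 held 557, 753 and 569 LSD1 reads, 427, 602 and 439 IgG reads and 342, 416 and 364 Input reads. Their LSD1 to IgG ratios were 1.06 (0.936 to 1.21), 1.02 (0.915 to 1.14) and 1.06 (0.931 to 1.20). LSD1 reads took part in the choice of these windows, so their ratios are not set against those of other places. The window from 22444001 to 22445000 on chromosome 2 held 664 LSD1 reads at a ratio of 1.06 (0.944 to 1.19), and that from 79650001 to 79651000 on chromosome 4 held 423 at 1.21 (1.04 to 1.41). The highest Input count, 424 reads, was in the window from 98502001 to 98503000 on chromosome 2. This window held 413 LSD1, 414 IgG and 408 H3K4me2 reads, and its ratio was 0.813 (0.708 to 0.934). The window from 98506001 to 98507000 nearby held 370 Input, 344 LSD1, 353 IgG and 340 H3K4me2 reads, at a ratio of 0.794 (0.683 to 0.924). With raw counts so alike between libraries, these ratios mostly give the ratio of the library sizes. They are not read as less LSD1 than IgG. In each library no 2 reads had the same start and strand, and whether this limited the counts here was not tested. In these 7 windows a high LSD1 count thus came with high counts in every library, and the ratios ran from 0.794 to 1.21.

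LSD1 reads beyond IgG were then added up. When the level in windows over 100 kb from H3K4me2 was taken as the background, the LSD1 library held 9.04% of its reads in excess of IgG in windows outside peaks and 10.3% in windows that touched a peak. Of the whole excess on the autosomes, 46.7% thus lay outside peaks, of which the first 4 distance classes held 9.29%, 11.7%, 14.5% and 11.1%. For H3K4me2 the share outside peaks was 42.7%. With Input in place of IgG the LSD1 share was 59.8%. By construction the windows over 100 kb contribute 0. The sum assumes that IgG recovers the background evenly, which the ratios of IgG to Input above show it did not relative to Input.

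Stretches of 10 kb with at least 8 windows outside peaks gave the spread of the ratio within a class, counting error included. Among those with at least 20 LSD1 plus IgG reads, the middle 90% of LSD1 to IgG ratios, with 0.5 reads added to each count, ran from 0.596 to 1.94 where the nearest window was under 1 kb from the mark. They ran from 0.420 to 1.49 where it was over 100 kb away. The medians were 1.06 and 0.815, so the observed ratios of the 2 classes overlapped widely. With so few reads per stretch counting error alone spreads them, so the overlap does not measure how much places differ. Over all such stretches, the variance of LSD1 counts given the sum of both libraries was 1.78 times that of counting error in the nearest class and 1.11 times in the farthest. In both classes stretches thus varied beyond counting error. This measure grows with the number of reads, and the median stretch held 31 LSD1 and 24 IgG reads in the nearest class against 13 and 13 in the farthest, so the 2 values do not compare the scatter at equal depth. The intervals given for summed ratios do not include this scatter.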

How the data were processed

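Per the labels' protocols, chromatin was fixed with formaldehyde and sonicated, fragments near 200 bp were cut from a gel, and reads were 36 bases long. The build is mm9, per the submitters' processing notes. Not given in the sources used here: aligner, read filters, peak caller and its control. The authors deposited the position of every aligned read, from which raw read counts were made here, and the positions of peaks. In each library, no 2 reads had the same start and strand.

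Each read's 5′ end was moved 100 bp along its strand and counted in its window, and counts were divided by the reads of the library (RPM). Windows ran from the first to the last read of each autosome. Levels per kb left out runs of 10 or more windows without a read. The 95% intervals of ratios are exact binomial ones, with the sum of both counts held fixed. Contrasts of 2 ratios carry intervals from the reciprocal counts on the log scale. Peaks of 1 list do not overlap, and distance is the gap to the nearest H3K4me2 peak. The window counts and ratios were tested on simulated data with known folds.

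Windows were named by rule, among those with at least 10 LSD1 plus IgG reads: the 8 highest and 5 lowest LSD1 to IgG ratios and the 5 highest over 100 kb. The 5 windows with the most LSD1 reads and the 5 with the most Input reads were added. Windows on chromosome 18 are counted but not named. Members, classes and rules were chosen with earlier results of these data known. The classes of H3K4me2 reads, the neighbouring windows and the features of the nearest peak were added after seeing the counts. Alternatives were reads moved 0 or 35 bp, 2 other scalings, Input as the control, Input limits, windows of 500 and 2000 bp, distance from LSD1 and IgG peaks, and for single windows another read minimum, pseudocount and fold. The work used scipy 1.17.1 and numpy 2.4.6 for counts and intervals and matplotlib 3.10.9 for figures, under Python 3.11.15 with pandas 2.3.3.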

Additional observations from a re-analysis of the deposited data

How the results depend on the processing

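Over 12 results, 109 alternative values were computed: 61 stayed within the main interval (a count within 1.5 times), 42 moved beyond it and 6 changed sides of 1. Some of the 61 could not differ: near to far and low to high Input do not depend on scaling, so the 2 other scalings leave them unchanged. All 6 changes came from scaling or the control. Scaled to windows over 100 kb from H3K4me2, the ratio was 1.12 over all windows, 1.20 at 5 to 20 kb, 1.09 at 20 to 100 kb and 1.08 without Input reads. At 5 to 20 kb it was 1.07 scaled to reads outside peaks and 1.06 against Input. Of the other values, those scaled to windows over 100 kb were 1.75 under 1 kb, 1.00 over 100 kb (both by construction of the scale) and 46004 windows past the 2-fold difference. Scaled to reads outside peaks, they were 1.00 over all windows (by construction of the scale), 1.56 under 1 kb, 0.891 over 100 kb and 0.959 without Input reads. Against Input they were 0.885 over all windows, 1.73 under 1 kb, 0.686 over 100 kb and 2.53 for near to far. With Input the contrast of 8 or more against 0 H3K4me2 reads in far windows was 3.12, and near to far at 0 H3K4me2 reads was 1.51. With at least 1 Input read the ratio was 0.910 over all windows and 0.806 over 100 kb, and the H3K4me2 contrast was 2.06, against 2.46 with fewer than 10 Input reads. With windows of 500 bp the ratio was 0.910 over all windows, 1.54 under 1 kb, 1.91 for near to far and 0.886 without Input reads, and 14336 windows passed the fold. With windows of 2000 bp these ratios were 0.893, 1.27, 1.58 and 0.839, and low to high Input was 0.887. More than 5 kb from LSD1 and IgG peaks the ratio was 0.895 over all windows and 0.860 without Input reads. With at least 15 reads 11836 windows passed, and with a fold of 3, 13979. Alternatives for the H3K4me2 contrast, for near to far at 0 H3K4me2 reads and for the middle distances were chosen after seeing the data. No paired analysis was possible because IgG and LSD1 have 1 library each. Depth limits single windows, which over 100 kb held a median of 1 read per library.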
